A study of Mus musculus with 2 samples.

Results

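The cells described here are limb mesenchyme cells without Shh transcripts, split by whether RNA of the Hedgehog target genes Gli1 and Ptch1 was seen in them. Of 29393 barcodes in both libraries, 14126 passed a gate of at least 1000 genes, at least 8000 unique molecular identifiers (UMIs), at most 10% mitochondrial UMIs, at least 2 Prrx1 UMIs, globins under 2%, and no UMI of Epcam, Cdh5, Lbx1, Csf1r or Shh. Hedgehog-responding cells were those of the gate with at least 1 Gli1 and at least 3 Ptch1 UMIs, 2245 in all, 1424 of dual-enSERT-1 (called embryo 1 here) and 821 of dual-enSERT-2 (embryo 2). Non-responding cells had neither a Gli1 nor a Ptch1 UMI, and numbered 3703, 3050 of embryo 1 and 653 of embryo 2. The other 8178 gated cells fell in between and entered neither group.

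Each library was made by droplet single-cell RNA sequencing from the hindlimb of 1 transgenic FVB mouse embryo at E11.5, when the limb buds grow out. Both embryos carried a pair of fluorescent reporters at the H11 site, with mCherry under the reference ZRS, the limb enhancer of Shh, and eGFP under its ZRS404G>A allele. The construct of embryo 2 additionally holds parts labelled B and SI, which the labels do not spell out, so embryo and construct cannot be told apart. Responding and non-responding cells of the same embryo share its construct, dissection and library.

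Hedgehog ligands bind the receptor Ptch1, which otherwise holds the membrane protein Smo inactive, and bound receptor lets Smo act at the primary cilium on the Gli transcription factors. Without ligand, Gli3 in particular is processed into a repressor, and with ligand, full-length Gli2 and Gli3 activate targets, among them Gli1, Ptch1 and Hhip. In the limb bud, Shh is made by posterior mesenchyme and patterns digits from the posterior to the anterior margin, while cells that do not make Shh respond to it.

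Gli proteins bind the consensus GACCACCCA, and stretches around this motif are shown for Ptch1, a gene of the rule, and for a pair of genes called at least 2-fold higher that hold the motif near their start, which most such genes do not. Sequences were read from GRCm39 at GENCODE M39 gene starts, within 2000 bases on either side, both strands searched, and are printed 5′ to 3′ on the motif's strand with the motif in capitals. The Ptch1 stretch lies at chr13:63721264-63721302 on the minus strand, 125 bases after the start. That of Rasgef1b, which encodes a guanine nucleotide exchange factor, lies at chr5:99877665-99877703 on the minus strand, 559 bases before the start. Lypd6, which encodes a regulator of Wnt signalling, has it at chr2:49956979-49957017 on the plus strand, 572 bases after the start.
Ptch1: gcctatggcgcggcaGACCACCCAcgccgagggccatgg
Rasgef1b: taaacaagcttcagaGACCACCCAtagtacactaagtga
Lypd6: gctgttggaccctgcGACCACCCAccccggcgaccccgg
Within this window the motif was present in 331 of 10549 tested genes with a found start (3.14%), in 6 of 81 genes called at least 2-fold higher in responding cells (7.41%) and in 1 of 63 called at least 2-fold lower (1.59%). Among the 6 were Rasgef1b, Lypd6, Cbfa2t3, Frem1 and Gm20275, and the 1 was Vegfd. In the shorter RefSeq promoter windows (GRCm38.p6, 250 bases before to 50 after the start), 78 of 27025 genes (0.289%) held it, with 0 of 58 matched higher and 0 of 48 matched lower genes. A match describes the letters in a window and is not a measured binding site.

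Responding cells were deeper and more often distal than non-responding cells, in both libraries. Their median was 20020.5 UMIs against 13436 in embryo 1 and 32026 against 22915 in embryo 2, and the 4 summed profiles held 15139246 to 43912287 UMIs. Scrublet called 20.4% of responding and 2.98% of non-responding cells doublets in embryo 1, and 1.10% and 0.306% in embryo 2. Doublets were kept, and counts without them are given beside the results. A Hoxa13 or Hoxd13 UMI, the mark used here for distal cells, was present in 73.0% of responding and 28.7% of non-responding cells of embryo 1, and in 50.7% and 15.5% in embryo 2. With every cell thinned to 8000 UMIs these shares were 61.7% and 22.7%, and 28.7% and 7.5%. All 7 limb mesenchyme markers were present in every group, whereas the summed marker levels of muscle (at most 3.98 CPM), endothelium (at most 3.64 CPM), ectoderm (at most 5.62 CPM), macrophages (at most 1.66 CPM) and neural crest and glia (at most 7.97 CPM) were low. Apart from neural crest and glia, each of these lists holds a gene of the gate (Prrx1, Lbx1, Cdh5, Epcam or Csf1r). Their levels were therefore partly set by the gate. The limb mesenchyme markers summed to 2094 CPM in responding and 2718 CPM in non-responding cells of embryo 1. In embryo 2 they summed to 1831 and 2660 CPM. The erythroid markers summed to 215 CPM in responding and 235 CPM in non-responding cells of embryo 1, and to 1726 and 1801 CPM in embryo 2, so they were nearly as high as the limb mesenchyme markers in responding cells of embryo 2 and alike in both cell groups of an embryo. The perivascular list summed to between 59.1 and 66.0 CPM. Across the libraries 49 barcodes occurred in both, 8 of them in gated cells.

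The rule fixed the levels of its own genes, which are given as a description. CPM are UMIs of a gene per 1000000 UMIs of the summed group. Ptch1 stood at 283 CPM in responding cells of embryo 1 and 240 CPM in embryo 2, and Gli1 at 62.2 and 51.1 CPM. Both were 0 in non-responding cells by choice. At a depth of 8000 UMIs per cell, a Gli1 UMI was seen in 11.8% and 12.9% of gated cells and in 1.30% and 0.680% of erythroid cells, which should lack the gene. The corresponding shares for Ptch1 were 53.2% and 52.9% of gated cells and 18.5% and 15.5% of erythroid cells. Scrublet called 20.8% and 7.73% of erythroid cells doublets, and at that depth 23.7% and 12.9% of them held a Prrx1 UMI. A cell with few Ptch1 UMIs can therefore carry RNA of other cells. Whether this is free RNA or a doublet was not tested, here or for the other erythroid levels given below. The absence of both transcripts at this depth does not show that a cell received no signal. Just outside the threshold, cells with Gli1 and 2 Ptch1 UMIs (346 and 127 cells) had Hhip at 11.2 and 4.92 CPM, and just inside it, with 3 Ptch1 UMIs (304 and 108 cells), at 8.22 and 8.1 CPM, all at 8000 UMIs per cell.

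Over all gated cells, and outside Gli1 and Ptch1, responding cells had higher levels of the Hedgehog feedback gene Hhip, posterior limb regulators and 3 Notch genes. They had lower levels of Hedgehog co-receptors, anterior limb regulators and 3 BMP-responsive genes. Not all of the Notch and BMP-responsive genes were called in the narrower sets of cells given further on. Of 10570 genes tested, 543 differed (5.14%), 291 higher (2.75%) and 252 lower (2.38%) in responding cells, by edgeR's quasi-likelihood test on the summed counts, with the embryo as a block and Benjamini-Hochberg adjusted p under 0.05. Of these, 82 were at least 2-fold higher and 63 at least 2-fold lower. The split was 324 higher to 177 lower without scaling beyond library size. With the doublets called by Scrublet removed the counts were 173 and 155, and all 543 genes kept their direction, 324 of them called again. Without doublets Fgf10, Hsd11b2, Tbx18, Ebf1, Col11a1, Sfrp1, Meis1, Cdkn1c, Hmmr, Rarb, Sall4, Fgf18 and Ccne1, described below, were no longer called. When cells were thinned to 8000 UMIs before the groups were formed, 316 of the 543 genes were called again. Hey1 (log2 fold 0.57), Fgf18 (0.57), eGFP (0.32), Sall4 (0.30), Nusap1 (0.26) and Rarb (0.11) were among those no longer called. DESeq2 called 287 of the 543 again, and did not call Alx1, Msx1, Sall4, Rarb, Fgf18, Col11a1, Ung or Ccne1. Without the embryo as a block edgeR called 0 genes, with 329 at an unadjusted p under 0.05. The median log2 fold of all tested genes was -0.01. With 2 embryos, 1 residual degree of freedom stood behind each test before moderation, and the p-values measure only how alike the difference was in these embryos. Direction was shared for 211 genes past an absolute log2 fold of 0.58 in each library, and opposite for 3.

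**Figure D1:**
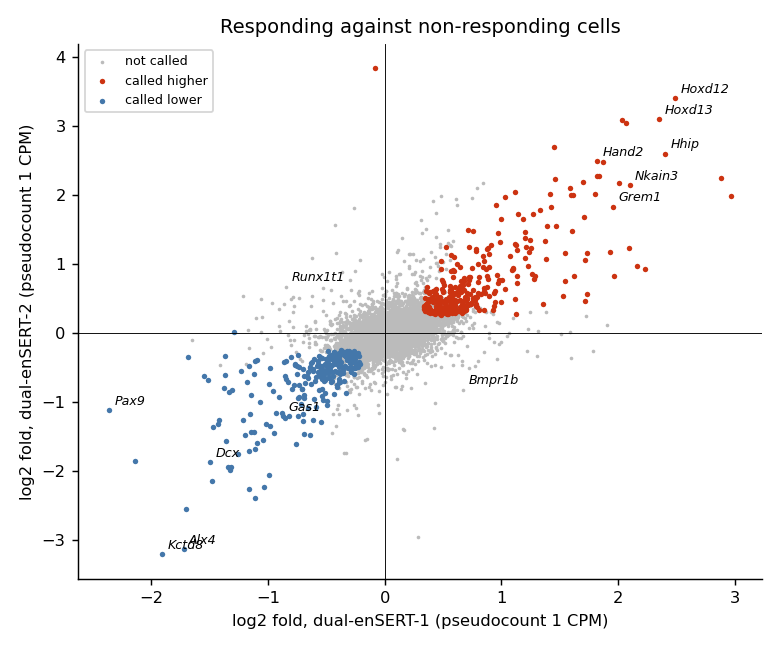
Log2 fold of responding against non-responding cells for each tested gene in embryo 1 (x axis) and embryo 2 (y axis), from pooled CPM with a pseudocount of 1 CPM. Red points are the 291 genes called higher and blue points the 252 called lower. Called genes lie mostly at the lower left and upper right, and Bmpr1b and Runx1t1 lie off that diagonal.

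Among receptors and ligand-handling genes, the feedback inhibitor gene Hhip was higher and the co-receptors were lower in responding cells. Of 14 listed genes 10 were measured, 2 were called higher, 4 lower and 4 were not called, beside 2.75% higher and 2.38% lower of all tested genes. Hhip (chr8:80692480-80784658, minus strand), whose product binds Hedgehog ligands at the surface and limits their reach, was at 14.8 CPM in responding and 1.98 CPM in non-responding cells of embryo 1, and 15.5 and 1.72 CPM in embryo 2. Its levels did not overlap between the groups, and its edgeR log2 fold was 2.95 ± 0.14 (SE, n = 2 embryos, edgeR adjusted p = 0.00101). Erythroid cells, which should lack Hhip, held it at 2.13 CPM in embryo 1, close to the level of non-responding cells, and at 0.729 CPM in embryo 2, below that level.

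The 3 co-receptors that bind ligand together with Ptch1 were all lower in responding cells. Gas1 (chr13:60322219-60325179, minus strand), a membrane-anchored co-receptor, was at 108 CPM in responding and 199 CPM in non-responding cells of embryo 1, and 59.6 and 139 CPM in embryo 2, a log2 fold of -1.08 ± 0.09 (SE, n = 2 embryos, edgeR adjusted p = 0.00308). Cdon, an immunoglobulin-family co-receptor, was at 50.6 CPM in responding and 85.5 CPM in non-responding cells of embryo 1, and 35.7 and 83.4 CPM in embryo 2, and its log2 fold was -1.02 ± 0.11 (SE, n = 2 embryos, edgeR adjusted p = 0.00708). Boc, its paralog, differed less, at 52.5 against 81.9 CPM in embryo 1 and 43.3 against 72.5 CPM in embryo 2 in responding against non-responding cells, a log2 fold of -0.73 ± 0.06 (SE, n = 2 embryos, edgeR adjusted p = 0.00368). Disp1, which releases ligand from producing cells, was also lower (37.2 against 51.4 CPM in embryo 1 and 37.7 against 52.5 CPM in embryo 2), with a log2 fold of -0.51 ± 0.06 (SE, n = 2 embryos, edgeR adjusted p = 0.0121). Smo, the signal transducer, was not called, at 123 against 109.7 CPM in embryo 1 and 147 against 129 CPM in embryo 2 and a log2 fold of 0.13 ± 0.06 (SE, n = 2 embryos, edgeR adjusted p = 0.255). The other measured genes, among them the glypican gene Gpc3 (0.12 ± 0.10), were not called either. Lrp2, Scube2, Dhh and Ihh were below the filter of a mean of 5 CPM over the 4 sums.

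**Figure D2:**
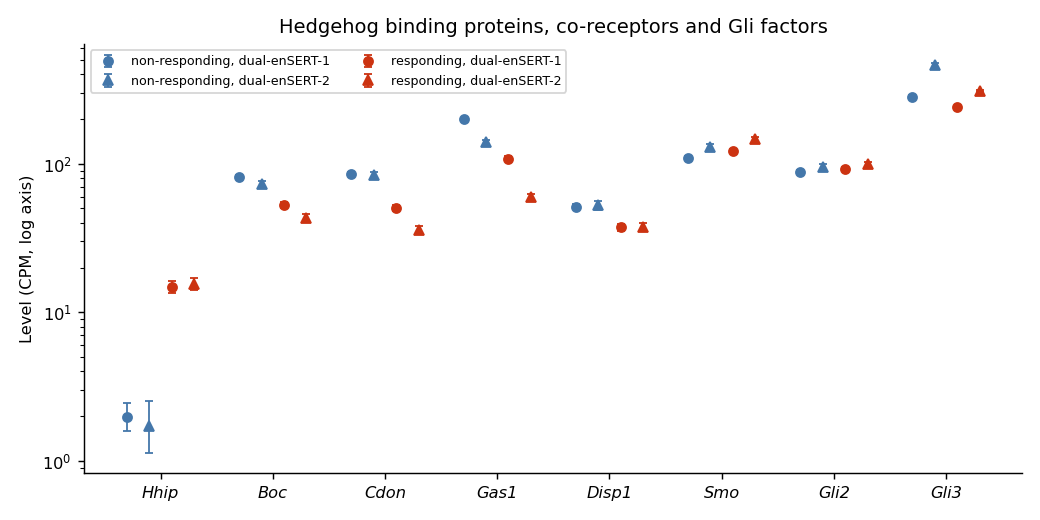
Levels in CPM (log axis) of 8 Hedgehog pathway genes in summed responding (red) and non-responding (blue) cells of embryo 1 (circles) and embryo 2 (triangles), with exact Poisson 95% intervals for counting error only. Hhip is higher and Boc, Cdon, Gas1 and Disp1 lower in responding cells of both libraries, while Smo and Gli2 are nearly level.

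Transcripts of the machinery between Smo and the nucleus had small folds. None of the 21 measured of 23 Gli factors and their regulators was called over all gated cells, with log2 folds from -0.45 to 0.29, and none of the 14 primary cilium genes was, from -0.16 to 0.14. With 5.14% of all tested genes called, counts of 0 in lists of this size lie near the background. Gli2, the main activator, was at 91.9 against 88.2 CPM in embryo 1 and 99.2 against 94.7 CPM in embryo 2, a log2 fold of 0.03 ± 0.06 (SE, n = 2 embryos, edgeR adjusted p = 0.825). Gli3, whose processed form is the main repressor, was at 241 against 283 CPM in embryo 1 and 308 against 462 CPM in embryo 2, lower in both libraries but at the edge of the threshold, with a log2 fold of -0.45 ± 0.09 (SE, n = 2 embryos, edgeR adjusted p = 0.0502). It was called in 10 of 14 alternative settings, among them DESeq2 (-0.44) and cells of 15000 to 30000 UMIs (-0.61). Within distal cells alone its log2 fold was -0.48 ± 0.10, and within non-distal cells -0.46 ± 0.09, and both were called. Sufu, which holds Gli proteins in the cytoplasm, had the highest log2 fold of this list, 0.29 ± 0.06 (SE, n = 2 embryos, edgeR adjusted p = 0.0599). Gli2, called in non-distal cells only (0.35 ± 0.08, against 0.07 ± 0.10 in distal cells), did not pass the test of the difference between these classes (edgeR adjusted p = 1.0).

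Levels of these genes were also read by the number of Ptch1 UMIs in a cell, the measure the rule used, at a common depth of 8000 UMIs per cell, and are given as a description. In embryo 1, Hhip stood at 2.38 CPM in non-responding cells, 10.2 CPM at 3 to 4 Ptch1 UMIs and 23.8 CPM at 10 or more. In embryo 2 it stood at 2.49, 7.63 and 19.98 CPM. Grem1, which encodes a secreted BMP antagonist, went from 15.7 through 56.8 to 99.05 CPM in embryo 1 and from 26.2 through 59.3 to 119 CPM in embryo 2. Gas1 went the other way, from 194 through 112 to 93.8 CPM and from 128 through 76.9 to 46.8 CPM. Much of the Gas1, Boc and Cdon difference already lay between non-responding cells and those with Gli1 and a single Ptch1 UMI. Boc, for example, was at 87.1 CPM in non-responding cells, 59.7 CPM at 1 Ptch1 UMI and 56.1 CPM at 10 or more in embryo 1. Cells without Gli1 but with at least 3 Ptch1 UMIs (2255 and 717), which belong to neither group, had Hhip at 12.8 and 10.98 CPM and Hand2 at 278 and 179 CPM. Those with Gli1 but no Ptch1 UMI (321 and 70) had Hhip at 5.84 and 1.79 CPM and Hand2 at 155 and 127 CPM. No test was made across these classes, which were formed with the gene that chose the groups.

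**Figure D3:**
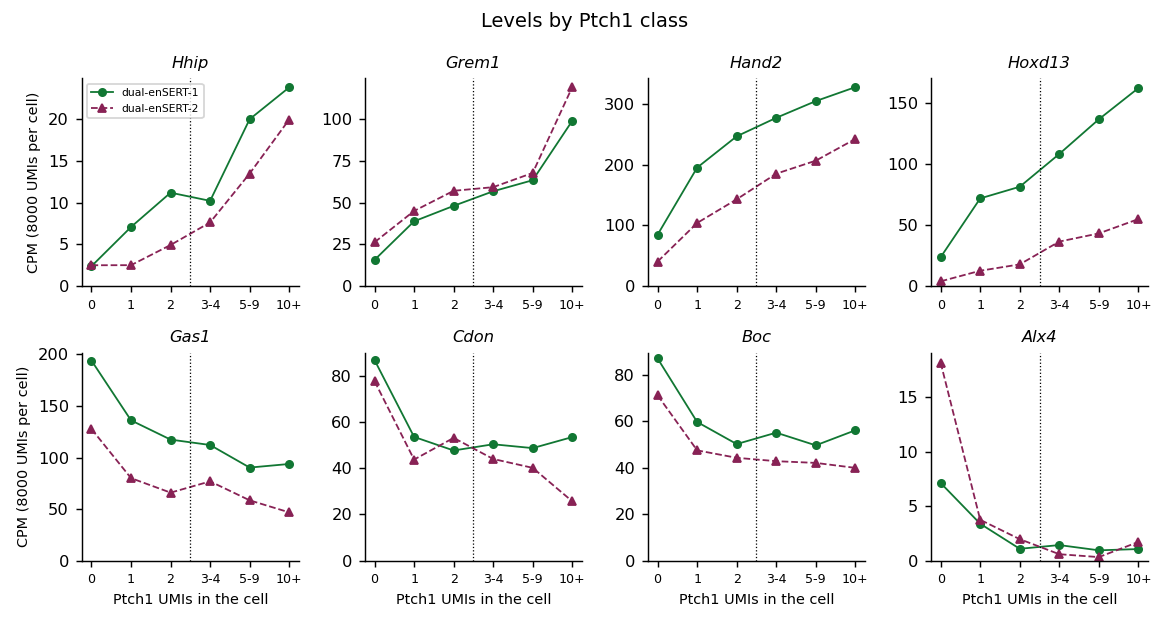
Levels of 8 genes in CPM (linear axes from 0) by the number of Ptch1 UMIs in the cell, all cells thinned to 8000 UMIs for the levels, in embryo 1 (circles) and embryo 2 (triangles). The first class holds cells with neither Gli1 nor Ptch1, the others hold cells with Gli1, and the dotted line marks the threshold of 3 Ptch1 UMIs. Hhip, Grem1, Hand2 and Hoxd13 are mostly higher and Alx4, Gas1, Cdon and Boc lower to the right of the first class.

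Among genes known as Hedgehog targets in the limb, those called were higher in responding cells. Of 34 listed, 27 were measured, 14 were called higher and none was called lower, beside 2.75% and 2.38% of all tested genes. The median log2 fold was 0.95, beside -0.01 over all genes tested. The list overlaps the posterior one, and it was drawn up with earlier results of these data known. Grem1, the BMP antagonist, was at 69.7 CPM in responding and 17.3 CPM in non-responding cells of embryo 1, and 80.5 and 21.9 CPM in embryo 2, and its log2 fold was 1.91 ± 0.07 (SE, n = 2 embryos, edgeR adjusted p = 3.36e-04). Cdk6, a cell cycle kinase, was at 133 against 55.7 CPM in embryo 1 and 196 against 76.6 CPM in embryo 2, a log2 fold of 1.27 ± 0.07 (SE, n = 2 embryos, edgeR adjusted p = 0.00143). Sall1, a zinc finger factor of the limb and kidney, was at 98.2 against 37.2 CPM in embryo 1 and 79.5 against 30.98 CPM in embryo 2, with 1.34 ± 0.06 (SE, n = 2 embryos, edgeR adjusted p = 9.85e-04). The Notch ligand gene Jag1 was at 43.4 against 11.7 CPM in embryo 1 and 7.07 against 0.991 CPM in embryo 2, with 2.01 ± 0.18 (SE, n = 2 embryos, edgeR adjusted p = 0.00422), and its level was far lower in embryo 2 in both groups. Sall3 and Hsd11b2, the latter encoding a glucocorticoid-inactivating enzyme, had smaller log2 folds of 0.55 ± 0.06 and 0.72 ± 0.14. Bmp2, a BMP ligand gene of the posterior limb, was at 14.9 against 6.67 CPM in embryo 1 and 0.736 against 0.793 CPM in embryo 2 and was not called (log2 fold 0.95 ± 0.22, edgeR adjusted p = 0.0678). Bmp4 and Bmp7 were not called, with 0.29 ± 0.14 and 0.21 ± 0.26. Foxf1, Foxf2, Foxc1, Foxc2, Foxd1, Foxl1 and Prdm1 were below the filter.

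Most posterior regulators were higher in responding cells, which by the gate held no Shh UMI. Of 14 listed genes 12 were measured and 9 were called higher, none lower, beside 2.75% and 2.38% of all tested genes. The median log2 fold was 1.74, beside -0.01 over all tested genes. Hand2, the posterior transcription factor that acts upstream of Shh, was at 277 CPM in responding and 77.9 CPM in non-responding cells of embryo 1, and 205 and 35.6 CPM in embryo 2. Its log2 fold was 2.11 ± 0.17 (SE, n = 2 embryos, edgeR adjusted p = 0.00304), and 94.9% of responding against 40.6% of non-responding cells had a UMI in embryo 1, with 91.4% and 37.5% in embryo 2. With every cell thinned to 8000 UMIs the shares were 83.1% against 32.3% and 72.5% against 19.6%. Its antisense neighbour Hand2os1 had a log2 fold of 2.46 ± 0.23, but whether counting used the strand is not given in the sources used here, and without strand the reads of Hand2 and Hand2os1 cannot be told apart. Tbx2 and Tbx3, T-box repressors of the posterior margin, had log2 folds of 1.83 ± 0.13 (SE, n = 2 embryos, edgeR adjusted p = 0.00281) and 1.42 ± 0.22 (SE, n = 2 embryos, edgeR adjusted p = 0.0243). Rspo3, which encodes a secreted enhancer of Wnt signalling, was at 117 against 43.2 CPM in embryo 1 and 80.4 against 19.2 CPM in embryo 2, with 1.67 ± 0.15 (SE, n = 2 embryos, edgeR adjusted p = 0.00422). The 3 that were not called included Dlk1 and Hoxd10, with log2 folds of 1.14 ± 0.28 and 0.16 ± 0.11.

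The HoxD genes, which are expressed in nested domains of the limb, had positive folds at Hoxd13 and a negative one at Hoxd9. Hoxd13 was at 131 CPM in responding and 24.8 CPM in non-responding cells of embryo 1, and 41.5 and 3.96 CPM in embryo 2, with a log2 fold of 2.64 ± 0.20 (SE, n = 2 embryos, edgeR adjusted p = 0.00283). Hoxd12 was at 89.5 against 15.2 CPM in embryo 1 and 31.2 against 2.05 CPM in embryo 2, with 2.82 ± 0.23 (SE, n = 2 embryos, edgeR adjusted p = 0.00320), and Hoxd11 at 294 against 109 CPM in embryo 1 and 248 against 69.2 CPM in embryo 2, with 1.59 ± 0.11 (SE, n = 2 embryos, edgeR adjusted p = 0.00263). Hoxd10 was nearly level at 54.5 against 39.9 CPM in embryo 1 and 53.5 against 55.9 CPM in embryo 2. Hoxd9, of the proximal list, was lower, at 26.6 against 52.4 CPM in embryo 1 and 33.1 against 91.9 CPM in embryo 2 and a log2 fold of -1.26 ± 0.11 (SE, n = 2 embryos, edgeR adjusted p = 0.00420). Hoxa13 had a log2 fold of 1.5 ± 0.14, and Hoxa7, Hoxc6 and Hoxc9 were lower, Hoxc9 by -0.60 ± 0.08. Because more responding cells were distal, and distal cells were defined by Hoxa13 and Hoxd13, the values within position classes given further on bear on these genes.

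Most anterior regulators were lower in responding cells. Of 12 listed genes 8 were measured, 7 were called lower and none higher, beside 2.38% and 2.75% of all tested genes. The median log2 fold was -1.49, beside -0.01 over all tested genes. Pax9, a paired-box factor of the anterior limb, was at 3.34 CPM in responding and 21.2 CPM in non-responding cells of embryo 1, and 0.552 and 2.38 CPM in embryo 2, with a log2 fold of -2.61 ± 0.18 (SE, n = 2 embryos, edgeR adjusted p = 0.00257). Alx4, a homeobox factor that limits Shh to the posterior side, was at 1.62 CPM in responding and 7.65 CPM in non-responding cells of embryo 1, and 1.36 and 19.7 CPM in embryo 2, with -3.06 ± 0.33 (SE, n = 2 embryos, edgeR adjusted p = 0.00791). Its paralog Alx1 had a log2 fold of -1.27 ± 0.17. Asb4, an ankyrin-repeat protein gene listed as anterior, was at 186 against 399 CPM in embryo 1 and 303 against 918 CPM in embryo 2, with -1.39 ± 0.12 (SE, n = 2 embryos, edgeR adjusted p = 0.00342). Msx2, a homeobox gene that responds to BMP, had a log2 fold of -1.84 ± 0.27. Gli3 was the listed gene that was not called.

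**Figure D4:**
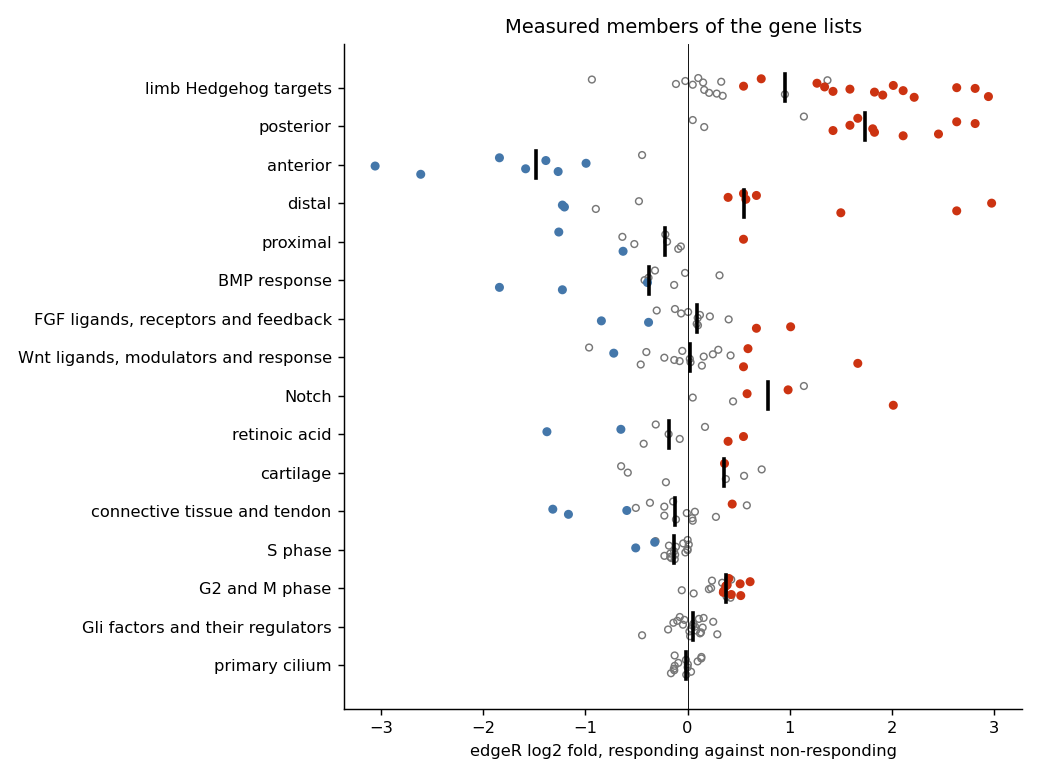
Log2 fold of responding against non-responding cells (edgeR, both libraries with the embryo as a block) for each measured member of 16 gene lists, 1 point per gene. Red points are called higher, blue points called lower, open points not called, and black bars are list medians. Anterior members lie left of 0 and most posterior and limb Hedgehog target members right of it, while cilium and Gli regulator genes lie near 0.

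Distal genes were of both kinds. Of 11 listed, all measured, 7 were higher and 2 lower, beside 2.75% and 2.38% of all tested genes. Tfap2b, an AP-2 factor, was at 111 CPM in responding and 13.4 CPM in non-responding cells of embryo 1, and 6.92 and 0.991 CPM in embryo 2, with a log2 fold of 2.98 ± 0.09 (SE, n = 2 embryos, edgeR adjusted p = 1.95e-04). Fgf10, the mesenchymal ligand that maintains the apical ridge, and Wnt5a, which directs limb outgrowth, had log2 folds of 0.67 ± 0.11 and 0.55 ± 0.07. Sall4 and the retinoic acid-degrading enzyme gene Cyp26b1 had 0.57 ± 0.10 and 0.40 ± 0.06. With the distal class as a further block neither was called (0.25 and 0.23), and in cells of 15000 to 30000 UMIs Cyp26b1 was at 0.14 and not called. Lhx9 and Msx1, both expressed in distal mesenchyme, were lower. Lhx9 was at 151 against 305 CPM in embryo 1 and 154 against 383 CPM in embryo 2, with -1.21 ± 0.09 (SE, n = 2 embryos, edgeR adjusted p = 0.00257), and Msx1 at 149 against 253 CPM in embryo 1 and 112 against 343 CPM in embryo 2, with -1.23 ± 0.18 (SE, n = 2 embryos, edgeR adjusted p = 0.0199). Of 9 measured of 11 proximal genes, Rarb was higher (0.55 ± 0.11) and Meis1 and Hoxd9 were lower (Meis1 -0.63 ± 0.12), with 6 not called. Meis1 was at 0.0011 with the distal class as a block.

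Genes of other signalling pathways were called in both directions, beside 2.75% of all tested genes called higher and 2.38% lower. In the BMP response list 9 of 10 were measured and Msx1, Msx2 and Id2 were lower, none higher, with a median log2 fold of -0.38. Among BMP ligands and antagonists Grem1 was the 1 called gene of 7 measured. Of 14 measured FGF genes, Fgf10 and the ligand gene Fgf18 were higher (Fgf18 1.01 ± 0.18), and the feedback inhibitors Spry1 and Dusp6 were lower (-0.84 ± 0.09 and -0.38 ± 0.06). In the Wnt list, Wnt5a, Rspo3 and Apcdd1 were higher and the antagonist gene Sfrp1 lower (-0.72 ± 0.12), of 18 measured. Sfrp1 was not called with the distal class as a block (-0.23) or in cells of 15000 to 30000 UMIs (-0.32). Of 6 measured Notch genes 3 were higher, Jag1 and the target genes Hes1 and Hey1. Hes1 was at 117 against 71.1 CPM in embryo 1 and 85.4 against 59.7 CPM in embryo 2, with a log2 fold of 0.58 ± 0.07 (SE, n = 2 embryos, edgeR adjusted p = 0.00962), and Hey1 at 28.6 against 16.2 CPM in embryo 1 and 34.8 against 14.4 CPM in embryo 2, with 0.98 ± 0.13 (SE, n = 2 embryos, edgeR adjusted p = 0.0128). In the retinoic acid list Cyp26b1 and Rarb were higher, and the retinoic acid-binding protein genes Crabp1 and Crabp2 lower, of 9 measured. Crabp1 was at 136 against 365 CPM in embryo 1 and 377 against 904 CPM in embryo 2, with a log2 fold of -1.38 ± 0.08 (SE, n = 2 embryos, edgeR adjusted p = 0.00204).

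Differentiation genes were called in both directions, beside 5.14% of all tested genes called. Of 7 measured cartilage genes Col11a1 was the called one, higher (0.35 ± 0.07), and Sox9, the cartilage master regulator, was at 214 against 292 CPM in embryo 1 and 94.2 against 85.9 CPM in embryo 2 and not called (log2 fold -0.21 ± 0.14), although in cells low in mitotic genes it was called lower, at -0.40. In the connective tissue list 16 were measured, Ebf1 was higher (0.44 ± 0.09), and Col1a1, Col1a2 and Tbx18 were lower. Col1a2, a type I collagen chain gene, was at 148 against 323 CPM in embryo 1 and 87.6 against 238 CPM in embryo 2, with -1.32 ± 0.09 (SE, n = 2 embryos, edgeR adjusted p = 0.00239). Tbx18, a T-box factor gene, had -1.17 ± 0.14 (SE, n = 2 embryos, edgeR adjusted p = 0.0108). Guidance and adhesion genes were called lower more often than higher, 8 against 2 of 23 measured. Slit3 and Nrp2 were the higher ones, with 0.80 ± 0.10 and 0.67 ± 0.07, and the lower ones included the protocadherin genes Pcdh17 and Pcdh19, with -1.76 ± 0.14 and -2.02 ± 0.17.

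Some genes of mitosis were slightly higher in responding cells. Of 19 measured G2 and M phase genes 9 were called higher, none lower and 10 were not called, with a median log2 fold of 0.38. Over all tested genes 2.75% were called higher and 2.38% lower. Nusap1, a spindle protein gene, was at 229 against 134 CPM in embryo 1 and 164 against 115 CPM in embryo 2, with a log2 fold of 0.61 ± 0.08 (SE, n = 2 embryos, edgeR adjusted p = 0.0119), and Hmmr had 0.51 ± 0.08. Mki67, the proliferation marker, was at 239 against 151 CPM in embryo 1 and 227 against 191 CPM in embryo 2 and was not called (log2 fold 0.42 ± 0.10, edgeR adjusted p = 0.0718). It was called in 6 of 13 alternative settings that kept the embryo as a block. In the distal, non-distal and Hand2-positive cells described below, 13, 12 and 11 of the 19 genes were called higher, each time with Mki67. Of all genes tested there, 5.91%, 4.14% and 2.11% were called higher. Of 18 S phase genes 2 were lower, Ung (-0.51 ± 0.07) and Ccne1 (-0.32 ± 0.06), and none was higher. The cell cycle inhibitor gene Cdkn1c was lower (-0.49 ± 0.09) and Igf1r, the receptor of insulin-like growth factors, was higher (0.47 ± 0.07). Depth and doublet share, given above, moved with these genes. Thinned to 8000 UMIs before grouping, Mki67 was called (0.37) and Nusap1 was not, and in cells low in mitotic genes Ung (-0.11) and Ccne1 (-0.06) were not called. Among dissociation stress genes none of 6 measured was called, and of 12 measured glycolysis and hypoxia genes Bnip3 and Ankrd37 were lower.

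The genes that ranked highest by their smaller fold in either library went beyond the lists. Nkain3, which encodes a membrane partner of the sodium pump, was at 153 CPM in responding and 34.9 CPM in non-responding cells of embryo 1, and 117 and 25.8 CPM in embryo 2, with a log2 fold of 2.11 ± 0.07 (SE, n = 2 embryos, edgeR adjusted p = 1.95e-04). Nrg1, which encodes the growth factor neuregulin 1, was at 150.2 CPM in responding and 36.05 CPM in non-responding cells of embryo 1, and 373 and 43.1 CPM in embryo 2, with 2.53 ± 0.24 (SE, n = 2 embryos, edgeR adjusted p = 0.00508). This symbol belongs to 2 features, and the values are those of ENSMUSG00000062991. Rasgef1b, with the Gli motif shown above, was at 387 against 108 CPM in embryo 1 and 231 against 46.7 CPM in embryo 2, with 2.02 ± 0.12 (SE, n = 2 embryos, edgeR adjusted p = 0.00221). Thsd4, Pdzd2 and Hdnr had log2 folds of 2.02 ± 0.13, 1.79 ± 0.14 and 1.79 ± 0.13. The predicted genes Gm34030 and Gm28309 had 2.23 ± 0.19 and 1.96 ± 0.15. Gm34030 (chr8:57777278-57787620, minus strand) overlaps Hand2, Hand2os1 and Hdnr, so these are not separate loci. The limit on strand given for Hand2os1 holds for them too. Gm28309 (chr2:74513790-74524538, plus strand) lies near Evx2 (chr2:74483335-74489901), a gene of the posterior list. Whether its reads are separate from those of the HoxD genes given above was not tested. Also among the ranked 15 were Hoxd12, Hoxd13, Hand2os1, Grem1, Hand2 and Tbx2, given above.

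At the lower end, Kctd8, which encodes an auxiliary subunit of GABA-B receptors, led the ranking. It was at 10.1 CPM in responding and 40.5 CPM in non-responding cells of embryo 1, and 3.28 and 38.6 CPM in embryo 2, with a log2 fold of -2.66 ± 0.31 (SE, n = 2 embryos, edgeR adjusted p = 0.00928). Dcx, the microtubule-binding doublecortin gene, was at 12.9 against 38.1 CPM in embryo 1 and 10.05 against 39.6 CPM in embryo 2, with -1.79 ± 0.11 (SE, n = 2 embryos, edgeR adjusted p = 0.00204). Tcf15, a bHLH factor gene of the paraxial mesoderm, and Mme, which encodes the membrane protease neprilysin, had log2 folds of -1.52 ± 0.10 and -1.5 ± 0.14. Hpse2, which encodes heparanase 2, was at 166 against 369 CPM in embryo 1 and 177 against 399 CPM in embryo 2, with -1.2 ± 0.07 (SE, n = 2 embryos, edgeR adjusted p = 0.00165). The adhesion genes Cntn4 and Alcam had -1.35 ± 0.09 and -1.21 ± 0.10, and E130114P18Rik had -1.62 ± 0.26. Pcdh17, Crabp1, Col1a2, Asb4, Lhx9 and Hoxd9, given above, were also among the ranked 15.

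Distal position was then held more nearly alike by comparing responding with non-responding cells within distal cells and within the others. Position between the anterior and posterior margins was not matched. The distal class held 1039 responding and 876 non-responding cells of embryo 1, and 416 and 101 of embryo 2. In the non-distal class these numbers were 385 and 2174, and 405 and 552. The median log2 fold of the anterior list was -1.57 in distal and -1.57 in non-distal cells. That of the posterior list was 1.63 and 1.83. In distal cells (Hoxa13 and Hoxd13 left out of the test) 620 of 10496 genes were higher (5.91%) and 386 lower (3.68%), together 9.58%. In non-distal cells 440 of 10626 were higher (4.14%) and 289 lower (2.72%), together 6.86%. DESeq2 called fewer, 129 and 72 in distal and 155 and 89 in non-distal cells. In the distal fit edgeR gave all genes 1 common spread, which makes its p-values small, so they are not printed. Every edgeR call and SE given for distal cells comes from that fit and shares this limit. DESeq2 called 199 of the 1006 distal genes again, and 244 of the 729 non-distal genes. Of the genes called higher, 292 were shared, 47.1% of the distal and 66.4% of the non-distal list, and of those called lower 168, 43.5% and 58.1%.

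Hhip and the co-receptor gene Gas1 kept their direction in both position classes. Hhip had log2 folds of 3.34 ± 0.32 in distal and 3.5 ± 0.15 in non-distal cells, and Gas1 -0.81 ± 0.10 and -1.0 ± 0.08. Hhip was at 11.2 against 1.12 CPM in embryo 1 and 7.63 against 0.410 CPM in embryo 2 in responding against non-responding distal cells. The 0.410 CPM is a level near 0 in 101 cells, so the size of the distal fold in embryo 2 is uncertain. In non-distal cells Hhip was at 26.97 against 2.39 CPM in embryo 1 and 24.3 against 1.97 CPM in embryo 2. Disp1 was called in non-distal cells (-0.44 ± 0.08) and not in distal cells (-0.20 ± 0.11). Hand2 had 1.7 ± 0.11 and 2.26 ± 0.11, Grem1 1.86 ± 0.11 and 1.7 ± 0.09, and Asb4 -1.5 ± 0.11 and -1.36 ± 0.09, all called. Of the measured anterior genes all 7 in distal and all 8 in non-distal cells were lower, and of the posterior genes 10 of 12 and 9 of 11 were higher.

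Sall1 was called in both classes, with 0.41 ± 0.10 in distal and 1.58 ± 0.20 in non-distal cells. Other genes were called in 1 class or in neither. Hey1 was not called in either, with 0.04 ± 0.11 in distal and 0.63 ± 0.17 in non-distal cells. Hes1 was called in non-distal and not in distal cells. Jag1 was called in distal cells and was below the filter in non-distal cells. Sall3 and Cyp26b1 were called in non-distal (0.41 ± 0.08 and 0.43 ± 0.08) and not in distal cells (0.03 ± 0.10 and 0.03 ± 0.10). Wnt5a was called in neither, with 0.18 ± 0.10 and 0.16 ± 0.08. Tbx18 was at 38.6 against 40.2 CPM in embryo 1 and 16.4 against 16.4 CPM in embryo 2 in responding against non-responding distal cells, a log2 fold of -0.10 ± 0.12, and was called in non-distal cells (-0.76 ± 0.14). Genes called within both classes and not over all cells included Dlk1 (1.43 ± 0.11 and 1.39 ± 0.14), Isl1, a posterior hindlimb factor gene (1.29 ± 0.21 and 1.9 ± 0.20), and Hoxc11 (0.54 ± 0.11 and 1.52 ± 0.09).

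The test of the difference between the classes called 0 of 10575 genes by edgeR (0.0%), with 381 at an unadjusted p under 0.05, while DESeq2 called 1 in each direction. Defining distal cells by at least 3 summed Hoxa13 and Hoxd13 UMIs left 20 non-responding distal cells in embryo 2. With that definition edgeR called 29 genes more positive and 10 more negative in distal cells. The lowest edgeR p was that of Hoxd11, whose log2 fold was 0.82 ± 0.10 in distal and 1.86 ± 0.09 in non-distal cells, a difference of -1.05 ± 0.12 (SE, edgeR adjusted p = 0.101). Aldh1a2, which encodes the main retinoic acid-synthesizing enzyme, had opposite folds, 0.96 ± 0.25 in distal and -1.15 ± 0.20 in non-distal cells, both called. In distal cells it was at 13.3 against 6.61 CPM in embryo 1 and 0.347 against 0 CPM in embryo 2 in responding against non-responding cells, and in non-distal cells at 9.81 against 21.3 CPM in embryo 1 and 0.157 against 0.236 CPM in embryo 2, so that embryo 2 had next to none. Its difference of 2.11 ± 0.29 (SE, edgeR adjusted p = 0.101) did not pass. Msx1 was lower in both classes, by -1.3 ± 0.10 and -2.29 ± 0.23.

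**Figure D5:**
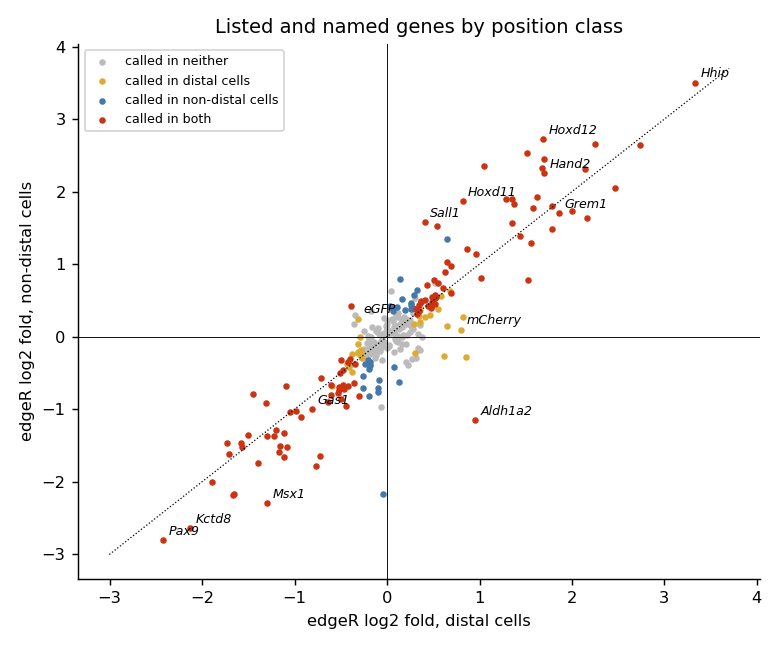
Log2 fold (edgeR) of responding against non-responding cells in distal cells (x axis) and in non-distal cells (y axis) for listed and named genes, coloured by where they were called, with the dotted line marking equal folds. Most points lie near that line, and Aldh1a2 is positive in distal and negative in non-distal cells.

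The contrast was also made among cells with Hand2 RNA, which share a posterior factor. These were 1352 responding and 1238 non-responding cells of embryo 1, and 750 and 245 of embryo 2. Distal position was not matched among them, and Hoxa13 and Hoxd13 were called higher in the responding ones. Of 10552 genes tested without Hand2, 223 were higher (2.11%) and 111 lower (1.05%), together 3.17%. Hhip had a log2 fold of 2.31 ± 0.16 (SE, n = 2 embryos, edgeR adjusted p = 0.00276) and Grem1 of 1.67 ± 0.08 (SE, n = 2 embryos, edgeR adjusted p = 0.00144). Among the 8 genes ranked highest were Nkain3, Grem1, Hoxd12, Rasgef1b, Thsd4, Hoxd13 and Pdzd2, and among the 8 lowest Kctd8, Pcdh17, Dcx, Crabp1, Col1a2, Cntn4 and Lhfp. Posterior genes called higher were 7 of 12 measured, and anterior genes called lower 3 of 6. Gas1 (-0.94 ± 0.12), Cdon (-0.81 ± 0.14) and Boc (-0.49 ± 0.07) were lower here too. Of 8 measured BMP response genes 0 were called here. In distal cells 5 of 9 were lower, and in non-distal cells 4 of 9 were lower and 1 was higher. Meis1, a proximal homeobox gene, was at 43.9 against 96.8 CPM in embryo 1 and 52.04 against 89.1 CPM in embryo 2, with a log2 fold of -1.02 ± 0.10 (SE, n = 2 embryos, edgeR adjusted p = 0.00765). Within distal and within non-distal cells Meis1 was not called. Over all gated cells it was at 0.0011 with the distal class as a block.

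Both reporters were higher in responding cells over all gated cells. The mCherry reporter of the reference ZRS was at 31.5 CPM in responding and 12.4 CPM in non-responding cells of embryo 1, and 15.6 and 8.59 CPM in embryo 2, with a log2 fold of 1.1 ± 0.13 (SE, n = 2 embryos, edgeR adjusted p = 0.00931). The eGFP reporter of the ZRS404G>A allele was at 159.7 CPM in responding and 106 CPM in non-responding cells of embryo 1, and 18.6 and 12.4 CPM in embryo 2, with 0.54 ± 0.07 (SE, n = 2 embryos, edgeR adjusted p = 0.0116). Erythroid cells, which should express neither, held eGFP at 54.0 and 6.38 CPM and mCherry at 33.6 and 5.59 CPM, so the mCherry level of responding cells in embryo 1 was no higher than that of erythroid cells. Within distal cells eGFP was lower in responding cells, at 191 against 233 CPM in embryo 1 and 23.8 against 27.1 CPM in embryo 2 (log2 fold -0.32 ± 0.11), and within non-distal cells it was not called (0.25 ± 0.10). For mCherry the log2 fold was 0.80 ± 0.14 in distal cells and 0.10 ± 0.18, not called, in non-distal cells. With the distal class as a further block over all gated cells, mCherry was no longer called (log2 fold 0.48) and eGFP was at -0.070. Lmbr1, the gene whose intron holds the ZRS, was not called (0.15 ± 0.09).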

How the data were processed

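The deposited matrices hold raw UMI counts per gene and barcode, which the authors made with Cell Ranger 7.0.1 per the file headers. Cell Ranger 3.1.0 stands in the submitters' processing notes, with Seurat 4 and mm39, and the 2 versions were not reconciled. Per the labels, 10000 cells were loaded on 10x 3' v3.1 chips and sequenced to about 50000 reads per cell. The samples are 2 libraries of 1 embryo each, and the labels tie both cell groups of a library to 1 embryo. Counts of cells passing the rule were summed per library and group (4 sums) with Python 3.11.15, Scanpy 1.11.5 and NumPy 2.4.6, and tested with edgeR 4.0.16 (R 4.3.3, TMM scaling, quasi-likelihood F test, embryo as a block, adjusted p under 0.05). DESeq2 1.42.0 was an alternative. Genes needed a mean of 5 CPM over the 4 sums. The 57 features of the rule (Gli1, Ptch1, gate genes, globins, mitochondrial genes) were counted in library sizes and not tested. Summed values of 1 embryo pair its cell groups, so the block follows from the design. Scrublet (expected rate 8%) marked doublets, which were kept. Poisson and Clopper-Pearson intervals (95%) cover counting error only. The members, gene lists and tests were chosen with earlier results of these data known, and the motif scan of 2000 bases was added after the promoter windows had shown no match. Genes were named where the adjusted p was under 0.05, each library had 20 CPM or more in a cell group and the libraries shared the direction. They were ranked on the lesser of both libraries' absolute log2 folds (pseudocount 1 CPM), taking 15 per direction over all gated cells and 8 in other contrasts, beside the pathway genes, reporters and listed genes. A few genes that met this rule are not reported here. On simulated data, 91.0% of genes changed by a log2 fold of 0.58 and 100% of those changed by 1 or 2 were recovered in the contrast over all gated cells, with 5 of 10370 unchanged genes called. For the difference between distal and non-distal cells the shares at 0.58, 1 and 2 were 47.8%, 94.0% and 100%, with 12 of 10375 called. The simulated counts had the same dispersion for every gene and the same fold in both embryos. Real genes differ in both, so these shares do not measure recovery or false calls in the real data.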

Additional observations from a re-analysis of the deposited data

Results flagged for a closer look

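Comparing the libraries gave opposite directions for Bmpr1b and Runx1t1 among genes of at least 20 CPM in either cell group of both libraries, and the difference between the libraries was not tested. Bmpr1b, a type I BMP receptor gene, was at 175 CPM in responding and 110 CPM in non-responding cells of embryo 1, a log2 fold of 0.67, and at 25.9 and 46.6 CPM in embryo 2, a log2 fold of -0.82. Runx1t1, a transcriptional corepressor gene, was at 99.1 and 179 CPM in embryo 1, a log2 fold of -0.85, and at 52.0 and 32.3 CPM in embryo 2, a log2 fold of 0.67. Osr2, an odd-skipped factor gene, was also opposite, at 33.2 against 51.8 CPM in embryo 1 and 10.8 against 4.56 CPM in embryo 2, below that level in embryo 2.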

How the results depend on the processing

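Without a replicate block for the embryo, edgeR called 0 genes higher and 0 lower over all gated cells, in distal, in non-distal and in Hand2-positive cells, with 329 genes at an unadjusted p under 0.05 over all gated cells. The folds of the 543 genes kept their direction there. Over all gated cells the counts higher and lower were 624 and 505 without a filter, 132 and 110 at a mean of 20 CPM or more (355 of the 543 genes tested), and 173 and 155 without Scrublet doublets. DESeq2 called 206 higher and 139 lower, with 287 of the 543 genes called again. Thinning to 8000 UMIs before grouping gave 447 and 373. Of the 543 genes, 316 were called again there, and 530 of the 536 tested kept their direction. Cells of 15000 to 30000 UMIs gave 274 and 242, with 352 of the 543 called again. Chosen after seeing the data, cells low in 5 mitotic genes gave 426 and 459, and the distal class as a further block 1079 and 1024. The planned removal of cells with 3 or more mitotic UMIs was not run, since it left 0 cells in embryo 2. In Hand2-positive cells no filter gave 733 and 588, and DESeq2 124 and 71. DESeq2 called 129 and 72 in distal and 155 and 89 in non-distal cells. For the difference between distal and non-distal cells, no filter gave 94 and 37 genes, and DESeq2 1 and 1. A distal class of at least 3 summed Hoxa13 and Hoxd13 UMIs gave 29 and 10, with 20 non-responding distal cells in embryo 2. Some single genes changed sign, called ones among them. Gli2 (log2 fold 0.03) went to -0.0091 with Gli1 and Ptch1 at least 1, -0.014 with doublets removed, -0.12 in cells low in mitotic genes, -0.042 in cells of 15000 to 30000 UMIs and -0.0055 when thinned before grouping. Sox9 (-0.21, not called) went to 0.024 in cells of 15000 to 30000 UMIs and was called at -0.40 in cells low in mitotic genes. Lmbr1 (0.15) went to -0.033 in cells low in mitotic genes. Osr2 (-0.11, not called) went to 0.26 by DESeq2 and in cells of 15000 to 30000 UMIs, and was called lower at -0.83 when thinned before grouping and at -0.56 in cells low in mitotic genes. With the distal class as a block, the called eGFP (0.54) went to -0.070 and Meis1 (-0.63) to 0.0011, and the uncalled Bmp4 went to -0.028, Sox9 to 0.18 and Osr2 to 0.57. The called Pf4 (3.76) went to -0.32 when thinned before grouping. Leaving out a library leaves folds with no test, which are the per-library levels in the text. So left, Pf4 ran from -0.079 to 3.84 and Smoc2 from -1.29 to 0.0088.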

Other observations

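Pf4, a platelet and macrophage chemokine gene chosen here after its values were seen, was called higher in responding cells (edgeR log2 fold 3.76 ± 0.65 (SE, n = 2 embryos, edgeR adjusted p = 0.0323)) on 1 cell. In embryo 2 it had 1106 UMIs in 11 of 821 responding cells, of which 1080 lay in a single cell, and 29 UMIs in 4 of 653 non-responding cells, of which 26 lay in a single cell. In embryo 1 it had 6 UMIs in responding and 11 in non-responding cells. Smoc2, a matricellular protein gene also chosen after its values were seen, was called lower (edgeR log2 fold -1.36 ± 0.23 (SE, n = 2 embryos, edgeR adjusted p = 0.0301)) from embryo 1, where it was at 5.91 against 15.9 CPM, while in embryo 2 it was at 0.405 and 0.396 CPM.

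Several genes outside the lists moved as far as the named ones but were under 20 CPM in embryo 2 or under it in both libraries, and were chosen after their values were seen. Clstn2, a calsyntenin gene, was at 125 against 16.2 CPM in embryo 1 and 15.6 against 2.51 CPM in embryo 2 in responding against non-responding cells, with an edgeR log2 fold of 2.84 ± 0.09 (SE, n = 2 embryos, edgeR adjusted p = 1.95e-04). Slc25a21, a mitochondrial carrier gene, was at 4.01 against 21.1 CPM in embryo 1 and 2.25 against 10.7 CPM in embryo 2, with -2.38 ± 0.12 (SE, n = 2 embryos, edgeR adjusted p = 0.00135). Hotair, a HOXC antisense RNA, was at 8.54 against 2.96 CPM in embryo 1 and 7.14 against 1.45 CPM in embryo 2, with 1.72 ± 0.21 (SE, n = 2 embryos, edgeR adjusted p = 0.0111), subject to the limit on strand given above.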
